A study of Mus musculus with 4 samples.

Results

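Myog-high myocytes are muscle cells of the mouse embryonic hindlimb that have switched on myogenin, the transcription factor that commits a myoblast to becoming a muscle fibre. They were chosen as cells with at least 5 UMIs of Myog (a UMI is a tag that marks 1 captured mRNA molecule), among cells in which 200 or more genes were detected and mitochondrial UMIs made up 10% or less. The choice gave 242 cells of 7318 kept cells in the E13.5, E15.5 and E18.5 libraries, and the whole series held 9958 kept cells. By stage they were 37 of 2816 cells at E13.5 (1.31%, 95% exact binomial interval 0.927 to 1.81%), 74 of 2598 at E15.5 (2.85%, 2.24 to 3.56%) and 131 of 1904 at E18.5 (6.88%, 5.78 to 8.11%).

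In limb muscle, progenitors of somite origin that express Pax7 enter differentiation through Myf5 and Myod1, then through Myog and the Mef2 factors. A myoblast that has turned on Myog leaves the cell cycle, fuses with its neighbours through the membrane proteins Mymk and Mymx, and builds sarcomeres, the repeating units of thick and thin filaments that contract. Actc1, the cardiac actin, is the actin of young skeletal muscle, and Acta1, the skeletal actin, becomes more prominent as the fibre matures. A single-cell capture samples mononucleated cells, since fused fibres are generally too large for the droplets.

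The study profiled hindlimb cells at 4 embryonic stages by droplet sequencing of mRNA 3' ends. All groups were C57BL/6 embryos with no treatment or genetic change. At each stage the hindlimbs of 6 to 7 pups from 1 litter were pooled, digested with collagenase and pronase and frozen, and dead cells were removed after thawing. Each stage is 1 library, so stage, litter and library cannot be told apart, no test between conditions is possible, and no p-value is given.

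The myocytes were described against muscle progenitor cells of the same library, defined as cells with at least 2 UMIs summed over Pax7, Myf5, Myod1 and Msc and under 5 Myog UMIs (34, 60 and 199 cells at E13.5, E15.5 and E18.5). Inside the myocytes, late cells with any Acta1 UMI (12, 20 and 62 cells in stage order) were set against early cells with none (25, 54 and 69 cells). Levels are UMIs summed over a group per 1000000 UMIs of that group (CPM), and values for single cells are UMIs per 10000 UMIs of the cell. A gene was called higher or lower where the ratio of the group levels was at least 2 in either direction, its exact 95% interval lay on 1 side of 1 and the groups together held at least 20 UMIs. The intervals cover counting error only, not variation between animals or cells.

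The libraries differed in depth. The median myocyte held 18573, 16384.5 and 8885 UMIs at E13.5, E15.5 and E18.5, against 14341.5, 16065.5 and 7912 UMIs in progenitors. The median share of mitochondrial UMIs was 3.20, 3.50 and 4.76% in myocytes, against 3.63, 3.20 and 3.74% in progenitors. Pairs of libraries shared 6 to 15 cell barcodes, and 4 myocytes carried such a barcode. At E15.5, 1 myocyte held 70242 UMIs, against 35408 in the next largest, and results that rest on it are given with and without it.

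Myog, the gene that chose the cells, had a median of 50, 66 and 27 UMIs per myocyte at E13.5, E15.5 and E18.5, and the highest cells held 154, 280 and 79 UMIs. Most cells lay far above the threshold: 28, 63 and 84 of them held at least 20 UMIs, and 1, 5 and 5 cells of the same libraries lay just below it, with 3 or 4 UMIs. At E13.5 the cell with 4 Myog UMIs had no Actc1 UMI, and the myocytes with 5 Myog UMIs had 3 and 4 Actc1 UMIs. At E18.5 the cells with 4 Myog UMIs had 3, 5 and 8 Actc1 UMIs, and the myocytes with 5 Myog UMIs had between 0 and 22. The myocytes held 95.4, 96.3 and 96.8% of all Myog UMIs of their libraries in stage order.

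The muscle markers that the rule did not use fitted the label. Actc1, Tnnt1 and Mylpf together reached at least 10 UMIs per 10000 in 33 of 37, 71 of 74 and 125 of 131 myocytes, against 2 of 34, 8 of 60 and 15 of 199 progenitors. The slow troponin T gene Tnnt1 stood at 1443, 1067 and 630 CPM in myocytes and 408, 251 and 136 CPM in progenitors. Actc1 had at least 1 UMI in 36, 73 and 130 myocytes (97.3, 98.6 and 99.2%), against 4.66, 8.14 and 7.64% of the other kept cells, those with no Myog UMI that were not progenitors. After each cell was thinned to 3000 UMIs the Actc1 shares of myocytes were 94.6, 97.3 and 99.2%. Of 5 heart markers, 1, 2 and 1 had a UMI in myocytes (the heart troponin gene Tnni3 in each library, and Myh6 at E15.5), and the list summed to 2.99, 1.56 and 0.817 CPM. Nppa, Myl7 and Nkx2-5 were at 0 in myocytes of each library.

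Traces of other cell types were present in both groups. Chondrocyte markers reached 10 UMIs per 10000 in 2 myocytes of each library, with a highest value of 194 at E18.5. Progenitors reached the same level in 4 of 34, 2 of 60 and 2 of 199 cells, with a highest value of 335 at E15.5. In 3, 5 and 26 progenitors Pax7, Myf5 and Myod1 had no UMI, so Msc alone chose them. At E18.5 connective tissue fibroblast markers reached that level in 7 of 131 myocytes and 64 of 199 progenitors, macrophage markers in 2 myocytes and 1 progenitor, and epithelial markers in 1 myocyte and no progenitor. The summed fibroblast level was 201, 232 and 375 CPM in myocytes against 293, 760 and 898 CPM in progenitors. The pericyte and smooth muscle list reached 10 UMIs per 10000 in 23, 26 and 63 myocytes, against 5, 6 and 27 progenitors. The list summed to 1259, 926 and 1209 CPM in myocytes and 651, 260 and 619 CPM in progenitors. Acta2, the smooth muscle actin that early skeletal muscle also uses, was at 1247, 921 and 1096 CPM in myocytes and 635, 247 and 488 CPM in progenitors. At E18.5 all 6 genes of the list had UMIs in both groups, and the pericyte gene Rgs5 was at 75.1 CPM in myocytes, in 19 cells of which 1 held 34.8% of its UMIs. No doublet caller was run here.

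Myog lies on mouse chromosome 1 (mm10, 134289989 to 134292548, plus strand). Its promoter and those of 3 genes whose levels separate the cells below are shown because Myog, Myod1 and their relatives bind the E-box CANNTG. The windows run from 250 bases before to 50 bases after the gene start, from RefSeq on GRCm38.p6, in the direction of transcription. Capitals mark every CANNTG, a pattern that matches at the same place on both strands although its NN letters can differ between them.
Myog, chr1:134289754-134290053, plus strand: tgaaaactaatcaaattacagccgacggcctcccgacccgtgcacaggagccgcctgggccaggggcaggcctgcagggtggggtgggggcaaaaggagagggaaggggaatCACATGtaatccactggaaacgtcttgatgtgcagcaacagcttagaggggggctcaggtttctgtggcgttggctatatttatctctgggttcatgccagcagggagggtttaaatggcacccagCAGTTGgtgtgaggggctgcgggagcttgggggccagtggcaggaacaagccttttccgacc
Mylpf, chr7:127211358-127211657, plus strand: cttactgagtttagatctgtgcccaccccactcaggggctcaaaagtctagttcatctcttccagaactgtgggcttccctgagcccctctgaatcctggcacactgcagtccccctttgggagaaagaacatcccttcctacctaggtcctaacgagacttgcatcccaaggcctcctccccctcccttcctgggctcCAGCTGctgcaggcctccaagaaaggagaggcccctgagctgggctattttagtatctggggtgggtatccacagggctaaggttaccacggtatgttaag
Acta1, chr8:123894726-123895025, minus strand: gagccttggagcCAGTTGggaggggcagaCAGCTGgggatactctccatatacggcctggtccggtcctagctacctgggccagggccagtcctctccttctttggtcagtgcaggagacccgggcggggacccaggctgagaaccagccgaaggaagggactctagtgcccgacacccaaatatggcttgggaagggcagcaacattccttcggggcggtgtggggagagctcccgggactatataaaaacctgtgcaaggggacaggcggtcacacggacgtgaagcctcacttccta
Chrna1, chr2:73580289-73580588, minus strand: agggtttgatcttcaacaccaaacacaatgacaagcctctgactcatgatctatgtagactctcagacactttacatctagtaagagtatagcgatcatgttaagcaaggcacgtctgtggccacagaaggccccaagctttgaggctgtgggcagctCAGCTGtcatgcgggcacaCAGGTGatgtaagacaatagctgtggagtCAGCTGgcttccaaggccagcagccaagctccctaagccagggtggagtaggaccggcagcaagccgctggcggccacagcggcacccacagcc
The Myog window held CACATG at position -138 and CAGTTG at -12 from the start. Mylpf, the fast regulatory light chain gene, held CAGCTG at -51. Acta1 held CAGTTG at -238 and CAGCTG at -221. Chrna1, the acetylcholine receptor alpha subunit gene, held CAGCTG at -92, CAGGTG at -73 and CAGCTG at -44. Of all 27025 promoter windows in the table, 72.15% held a CANNTG and 16.11% held CAGCTG, so a match describes the letters and is not a binding site.

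Against progenitors of the same library, the myocytes were marked by contractile genes and by the fusion pair. Of 5503 genes with enough UMIs at E13.5, 349 (6.34%) were called higher and 331 (6.01%) lower. At E15.5 the calls were 439 of 7133 (6.15%) higher and 930 (13%) lower, and at E18.5 392 of 7565 (5.18%) higher and 1188 (15.7%) lower. Relative to the median gene, which stood below 1 in each library, the split was 579 higher and 635 lower at E15.5 and 577 and 809 at E18.5. Called the same way in all 3 libraries were 126 genes higher (2.36%) and 104 lower (1.95%) of 5328. Because Myog and the progenitor genes chose the cells, all of these are descriptions of the groups.

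Myog itself was at 3110, 3963 and 3073 CPM in myocytes and 18.4, 27 and 12.6 CPM in progenitors at E13.5, E15.5 and E18.5. In single myocytes it ran from 2.69 to 82.6 UMIs per 10000 at E13.5 (median 32), from 2.24 to 96.2 at E15.5 (median 44.5) and from 4 to 92.6 at E18.5 (median 31.3). The genes that chose the progenitors lay the other way. Pax7, the progenitor transcription factor, was at 7.48, 10.9 and 1.63 CPM in myocytes and 51.5, 57.6 and 59.5 CPM in progenitors. Myf5 was at 5.99, 7.02 and 4.9 CPM in myocytes and 64.4, 86.4 and 123 CPM in progenitors. Msc, a repressor of the myogenic factors, was at 65.8, 29.6 and 4.9 CPM in myocytes and 342, 328 and 270 CPM in progenitors.

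Myod1 was used to choose progenitors and yet was not a progenitor gene in the earlier libraries. Its level was 434, 331 and 115 CPM in myocytes and 107, 125 and 97.9 CPM in progenitors. The ratio was 4.07 at E13.5 (3.06 to 5.49), 2.66 at E15.5 (2.18 to 3.25) and 1.18 at E18.5 (0.932 to 1.48), so it was called higher in the first 2 libraries and in neither direction in the last. It had a UMI in 33 of 37, 67 of 74 and 71 of 131 myocytes. The E18.5 over E13.5 ratio was 0.265 in myocytes and 0.918 in progenitors, a difference that was not tested.

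Mef2a and Mef2c, which act with Myog on muscle promoters, were called higher in every library. Mef2a was at 64.3, 67.1 and 48.2 CPM in myocytes and 16.6, 16.7 and 13.2 CPM in progenitors. Mef2c was at 272, 190 and 87.4 CPM in myocytes and 16.6, 2.79 and 18.6 CPM in progenitors, giving ratios of 16.4 (8.47 to 36.5), 68.3 (23.1 to 333) and 4.69 (3.12 to 7.24). Without the largest cell the E15.5 level of Mef2c in myocytes was 129 CPM. Myf6, the last of the myogenic factors to come on, had 0, 2 and 0 UMIs in myocytes and 2, 3 and 4 in progenitors, too few to call.

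**Figure D1:**
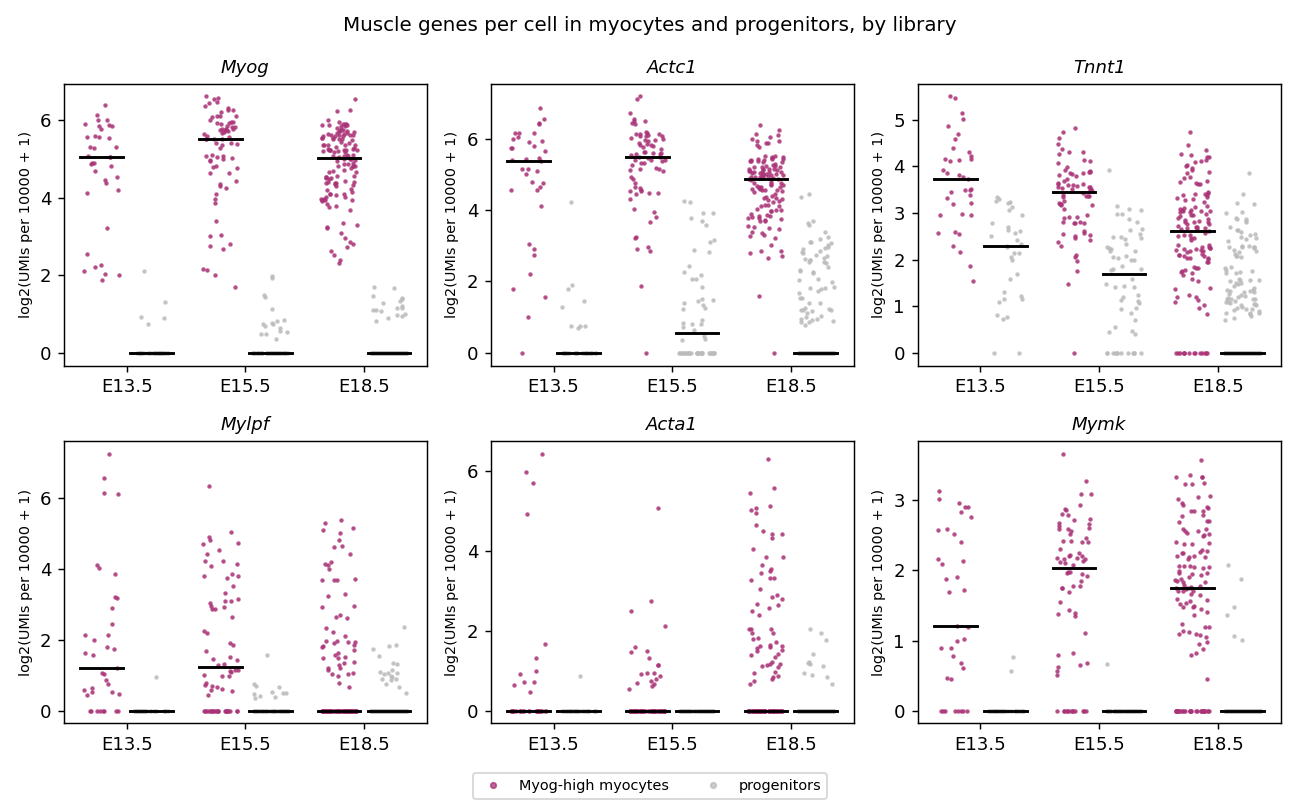
Levels of 6 genes in single cells, as log2 of UMIs per 10000 UMIs plus 1 on the vertical axis, for myocytes and progenitors of each library on the horizontal axis. Each point is 1 cell and black bars are medians; Actc1 medians are 40.2, 43.9 and 28.1 UMIs per 10000 in myocytes and 0, 0.478 and 0 in progenitors at E13.5, E15.5 and E18.5.

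Most thick and thin filament genes that could be tested were called higher in myocytes. Of the thick filament list, 8 of 8 tested genes were called higher at E13.5, 7 of 8 at E15.5 and 5 of 7 at E18.5, where Mybpc1 was lower. Of the thin filament list the counts were 13 of 16, 14 of 16 and 13 of 15, with the tropomyosin gene Tpm3 lower at E18.5. Each list held 18 genes, and the rest were below the UMI minimum. Over all tested genes 6.34, 6.15 and 5.18% were higher and 6.01, 13 and 15.7% lower. Genes almost absent from progenitors passed the minimum through their myocyte UMIs, so these counts are descriptions and not support. The median log2 ratio was 4.75, 4.82 and 3.32 for the thick filament and 3.38, 3.36 and 2.21 for the thin filament, with genes absent from progenitors set at their lower bound, against -0.06, -0.22 and -0.24 over all genes. These lists were chosen with earlier results of these data known.

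Actc1 was at 3942, 4837 and 2913 CPM in myocytes and 105, 284 and 156 CPM in progenitors, with ratios of 37.6 (28.9 to 49.8), 17 (15.2 to 19.1) and 18.7 (16.5 to 21.3). Mylpf was at 1383, 938 and 434 CPM in myocytes and 1.84, 11.2 and 15 CPM in progenitors. Its ratio was 751, 84.1 and 28.9, resting on 1 progenitor UMI at E13.5, and without the largest E15.5 cell its level there was 533 CPM and its ratio 47.8. Mylpf was found in only a part of the myocytes, 29 of 37, 52 of 74 and 53 of 131. At E13.5 its highest cells held 131, 173, 176 and 314 UMIs, and no other held more than 20. Myl1, a light chain of fast muscle, was at 657, 651 and 239 CPM in myocytes and 29.4, 3.72 and 6.01 CPM in progenitors. Without the largest cell its E15.5 level was 371 CPM, and the E15.5 ratio of 175 was 99.9.

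Acta1 was found in 12, 20 and 62 myocytes (32.4, 27 and 47.3%), against 1.5, 1.78 and 2.41% of the other kept cells. Its level was 709, 217 and 524 CPM in myocytes and 1.84, 0 and 8.41 CPM in progenitors. At E13.5 the highest cells held 76, 98, 131 and 159 Acta1 UMIs, and no other held more than 3. At E15.5, 232 of the 278 Acta1 UMIs (83.5%) came from the largest cell, and without it the level there was 38 CPM. Every myocyte with an Acta1 UMI also had an Actc1 UMI, while 24, 53 and 68 myocytes had Actc1 without Acta1, and 1 myocyte in each library had neither.

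The embryonic myosin heavy chain Myh3 was at 198, 132 and 18 CPM in myocytes and 0, 2.79 and 0 CPM in progenitors. Against the floor of 3 UMIs it was at least 35.8-fold higher at E13.5 and at least 9.97-fold higher at E18.5, and its ratio at E15.5 was 47.3. Without the largest cell its E15.5 level was 55.3 CPM and its ratio 19.8. Myh8, the perinatal heavy chain, was at 50.9, 46 and 26.9 CPM in myocytes, and at 23.1 CPM at E15.5 without that cell. The troponin genes followed the filaments. Tnnt2, the cardiac troponin T that embryonic skeletal muscle also expresses, was at 474, 946 and 1108 CPM in myocytes and 9.2, 6.51 and 28.2 CPM in progenitors. Tnni1, the slow troponin I, was at 681, 917 and 723 CPM in myocytes and 22.1, 10.2 and 7.21 CPM in progenitors. Tnnc1, the slow and cardiac troponin C, was at 825, 229 and 12.2 CPM in myocytes and 1.84, 2.79 and 3 CPM in progenitors. Without the largest cell the E15.5 level of Tnnc1 was 78.4 CPM. Its low E18.5 value came from 8 cells.

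Genes of the Z-disc and sarcomere assembly were called higher in 12 of 14, 13 of 13 and 8 of 12 tests, and none was lower. The list held 24 genes, and the rest were below the UMI minimum. Higher calls over all genes were 6.34, 6.15 and 5.18%, and lower calls 6.01, 13 and 15.7%. In all 3 libraries these were Ttn, Actn2, Smyd1, Klhl41, Cryab, Hspb2 and Cap2, of 10 genes tested in all. Titin (Ttn), the spring that spans the sarcomere, was at 477, 301 and 163 CPM in myocytes and 38.6, 46.5 and 15.6 CPM in progenitors. Desmin (Des), the muscle intermediate filament, was closer between the groups, at 539, 406 and 213 CPM in myocytes and 153, 182 and 166 CPM in progenitors. Des was called higher at E13.5 and E15.5, and its ratio at E18.5 was 1.28. Without the largest cell its E15.5 log2 ratio was 0.92 and no longer passed.

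Messenger RNAs for a part of the machinery that links nerve signal to contraction were found in myocytes. At E13.5, 12 of 21 excitation-contraction coupling genes and 5 of 12 neuromuscular junction genes were below the UMI minimum. Excitation-contraction coupling genes were called higher in 8 of 9, 10 of 11 and 7 of 10 tests, and none was lower. The calcium release channel Ryr1 was at 28.4, 42.1 and 40.8 CPM in myocytes and 1.84, 3.72 and 10.2 CPM in progenitors. The calcium pump Atp2a1 was at 260, 193 and 115 CPM in myocytes, with ratios of 23.6, 104 and 21.3. Neuromuscular junction genes were called higher in 5 of 7, 4 of 7 and 4 of 8 tests, with none lower. For both lists the shares over all genes were 6.34, 6.15 and 5.18% higher and 6.01, 13 and 15.7% lower. Chrna1, whose promoter is printed above, was at 245, 321 and 301 CPM in myocytes and 20.2, 12.1 and 25.2 CPM in progenitors. The fetal receptor subunit Chrng was at 64.3, 77.2 and 49.8 CPM in myocytes and 16.6, 8.36 and 10.8 CPM in progenitors. Muscle creatine kinase (Ckm), a gene of mature fibres, had only 1, 13 and 51 UMIs in myocytes and 0 in progenitors of every library.

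Among the fusion genes, 1 pair was found almost only in myocytes. Mymk, the myomaker protein, was at 250, 307 and 282 CPM in myocytes and 3.68, 0.929 and 5.41 CPM in progenitors. Mymx, the myomixer peptide, was at 305, 492 and 256 CPM in myocytes and 0, 0.929 and 1.2 CPM in progenitors, at least 55.3-fold higher at E13.5. Mymk had a UMI in 29, 61 and 100 myocytes (78.4, 82.4 and 76.3%), against 0.564, 0.433 and 0.804% of the other kept cells. Mymx had a UMI in 30, 67 and 90 myocytes (81.1, 90.5 and 68.7%), against 0.301, 0.909 and 0.402% of the other kept cells. At least 1 of the pair was found in 31 of 37, 67 of 74 and 112 of 131 myocytes, and both in 28, 61 and 78.

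Over the whole fusion list, 4 of 12, 5 of 13 and 3 of 15 tested genes were called higher and 0, 1 and 4 lower. The shares over all genes were 6.34, 6.15 and 5.18% higher and 6.01, 13 and 15.7% lower. The adhesion protein Jam3 was called higher in each library, at 356, 364 and 383 CPM in myocytes and 97.5, 96.7 and 99.1 CPM in progenitors. M-cadherin (Cdh15) was called higher at E13.5 and E15.5, at 311 and 353 CPM in myocytes and 140 and 149 CPM in progenitors, and had a ratio of 1.19 at E18.5. The lower calls at E18.5 were Cdh2, Jam2, Dock1 and Cd81.

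**Figure D2:**
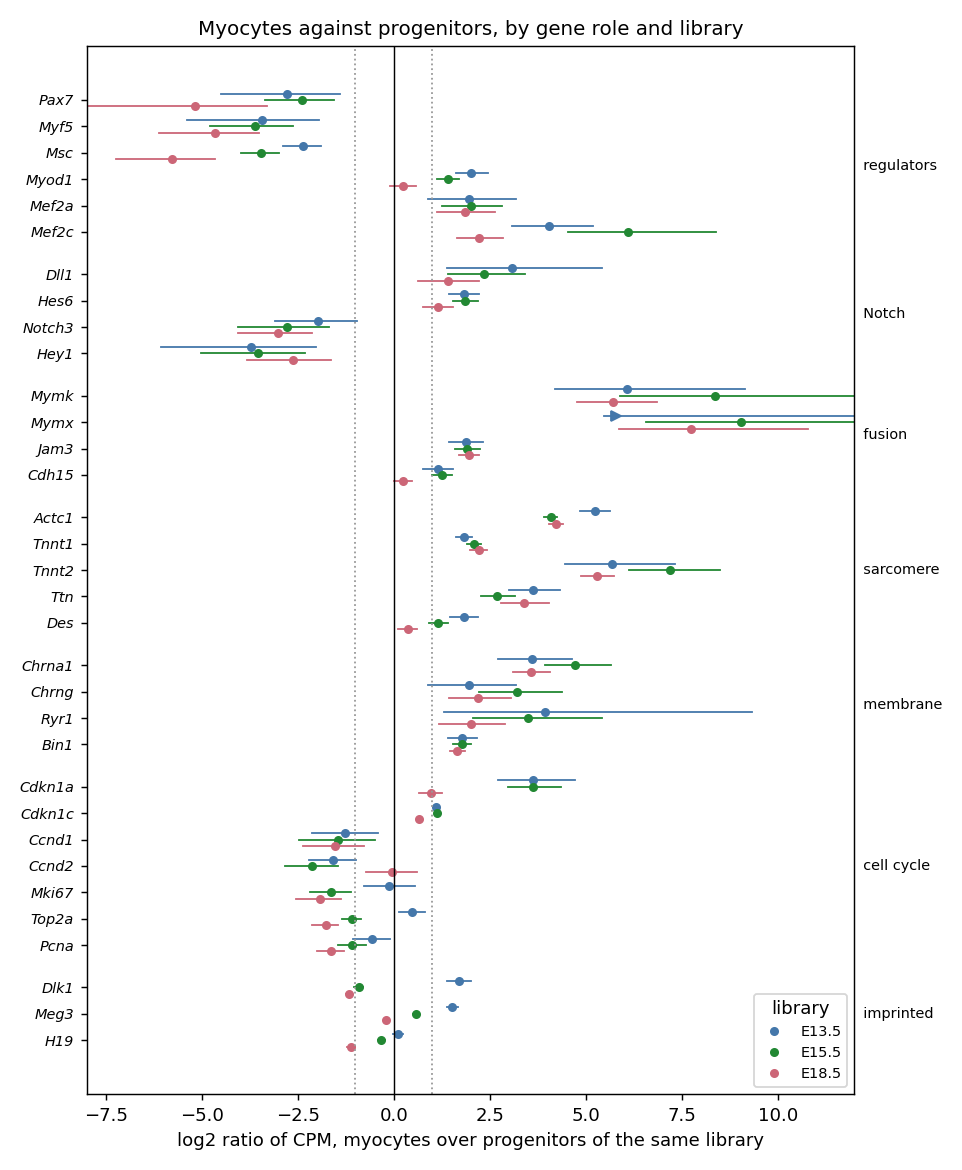
Log2 of the CPM ratio of myocytes over progenitors on the horizontal axis for genes grouped by role, 1 point per library with its exact 95% interval, which covers counting error only. Dotted lines mark a 2-fold difference, triangles mark lower bounds against 0 progenitor UMIs, and some intervals run past the axis edge; Mymk lies at ratios of 67.9, 331 and 52.1 and Myod1 at 4.07, 2.66 and 1.18 at E13.5, E15.5 and E18.5.

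Cell cycle genes were rarely called at E13.5 and often lower in the later libraries. Of 20 S phase genes, 2, 11 and 18 were called lower in myocytes at E13.5, E15.5 and E18.5, and none higher. The 2 at E13.5 were the replication genes Mcm4 and Gins2. Of 20 G2/M genes the lower calls were 0, 8 and 7, and none was higher. Lower calls over all genes were 6.01, 13 and 15.7%, so the E13.5 counts do not set these lists apart. The median log2 ratio of the S phase list was -0.16, -1.02 and -1.60, and that of the G2/M list -0.12, -0.94 and -0.82. Top2a, the topoisomerase of dividing cells, was at 307, 159 and 71 CPM in myocytes and 221, 341 and 244 CPM in progenitors. Mki67, the proliferation antigen, was at 62.9, 33.5 and 24.5 CPM in myocytes and 68.1, 104 and 93.7 CPM in progenitors.

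Single myocytes spread widely in these genes. The 40 S phase and G2/M genes summed to at least 30 UMIs per 10000 in 21 of 37 myocytes at E13.5 (56.8%, 39.5 to 72.9%), 27 of 74 at E15.5 (36.5%, 25.6 to 48.5%) and 25 of 131 at E18.5 (19.1%, 12.7 to 26.9%). In progenitors the same level was reached in 21 of 34 (61.8%), 50 of 60 (83.3%) and 113 of 199 (56.8%). The value of 30 was chosen after the values were seen. Between 15 and 30 lay 0, 7 and 16 myocytes, and below 15 lay 16, 40 and 90. The median UMI count was 19990, 20405 and 10653 in myocytes at or above 30, against 16393, 14314 and 8676.5 in those below it, and the part of depth in the split was not tested. Counting cells that hold both Mki67 and Top2a UMIs gave 15 of 37, 19 of 74 and 12 of 131 myocytes, against 15 of 34, 37 of 60 and 59 of 199 progenitors.

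Myocytes with high cell cycle genes still carried muscle genes. All but 1 of them had an Actc1 UMI (20 of 21, 27 of 27 and 25 of 25), and 14, 18 and 13 had a Mymk UMI. Their level of Myog, the gene that chose the cells, was 2324, 2865 and 2040 CPM, against 4375, 4806 and 3398 CPM in the other myocytes. Their Mylpf level was 99.5, 113 and 10.2 CPM, against 3449, 1570 and 567 CPM in the other myocytes. They kept some Msc, at 102, 52.1 and 6.82 CPM, against 7.81, 12.4 and 4.29 CPM in the other myocytes. Their lowest Myog count was 5 UMIs in each library, so some lay at the threshold. Progenitors with high cell cycle genes had an Actc1 UMI in 6 of 21, 28 of 50 and 41 of 113 cells, and a Mymk UMI in 1, 1 and 2. Actc1 was at 128, 286 and 168 CPM in those progenitors and 2683, 2994 and 1896 CPM in myocytes with high cycle genes. How many barcodes of these myocytes held more than 1 cell was not tested.

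**Figure D3:**
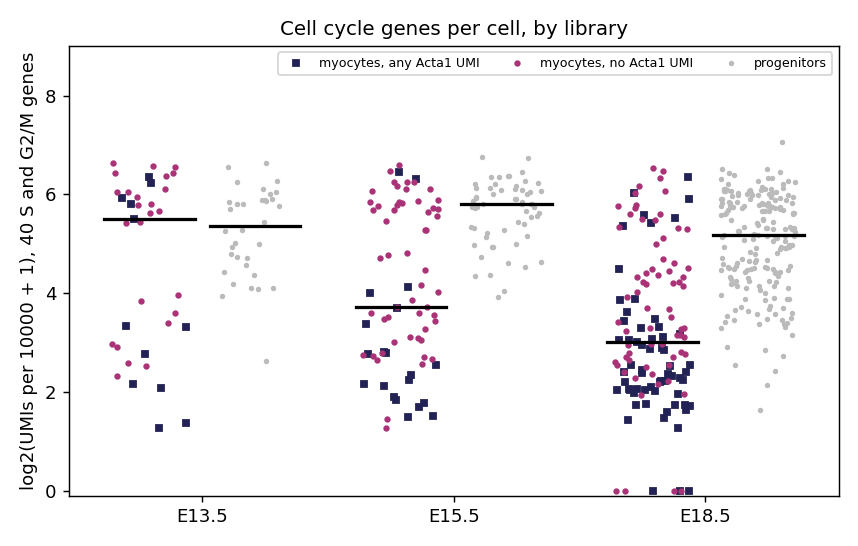
Summed UMIs per 10000 of 40 S phase and G2/M genes in each cell on the vertical axis, for myocytes and progenitors of each library. Medians are 44.5, 12.2 and 7.04 in myocytes and 40.4, 54.8 and 35.4 in progenitors at E13.5, E15.5 and E18.5, and the myocytes at E13.5 leave the range from 15 to 30 empty.

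The inhibitors of division moved in different ways. Cdkn1a, the p21 inhibitor that Myod1 can induce, was at 227, 229 and 193 CPM in myocytes and 18.4, 18.6 and 99.1 CPM in progenitors. Its ratios were 12.4 (6.54 to 26.3), 12.3 (7.84 to 20.5) and 1.94 (1.59 to 2.39), so it was not called at E18.5, where it passed in 5 of the alternative settings. In the other kept cells it was at 40.7, 78.5 and 148 CPM, so its level in cells that are not myocytes was greater in the later libraries. Among myocytes with high cycle genes Cdkn1a was at 124, 115 and 222 CPM, against 395, 317 and 184 CPM in the other myocytes.

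Cdkn1c, the imprinted p57 inhibitor, was abundant in both groups, at 8540, 11527 and 12812 CPM in myocytes and 3971, 5311 and 8073 CPM in progenitors. Its median per cell was 94.3, 121 and 130 UMIs per 10000 in myocytes and 32.9, 49.7 and 79 in progenitors. In myocytes with high cycle genes it was at 8444, 10444 and 10492 CPM, close to the 8695, 12358 and 13542 CPM of the other myocytes. Rb1, the retinoblastoma protein that holds back S phase genes, was at 61.4, 60.1 and 72.7 CPM in myocytes and 1.84, 4.65 and 7.21 CPM in progenitors. The cyclin gene Ccnd1 was called lower in each library, at ratios of 0.418, 0.367 and 0.345.

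Notch genes were called in both directions. Of 10 genes tested in all 3 libraries, Dll1 and Hes6 were higher and Notch2, Notch3 and Hey1 lower in each, and at E13.5 Rbpj and Dlk1 were also higher. Dll1, the ligand that signals to neighbouring progenitors, was at 46.4, 52.3 and 35.1 CPM in myocytes and 5.52, 10.2 and 13.2 CPM in progenitors. Hes6, an inhibitor of Hes1, was at 452, 327 and 122 CPM in myocytes and 127, 90.2 and 55.3 CPM in progenitors. The receptor Notch3 was at 16.5, 6.24 and 8.98 CPM in myocytes and 64.4, 42.8 and 73.3 CPM in progenitors. The target gene Hey1 was at 4.49, 4.68 and 7.35 CPM in myocytes and 58.9, 53.9 and 45.7 CPM in progenitors. Hes1 was not called in any library, at ratios of 0.84, 1.14 and 0.829. Over the Notch list, 4 of 10, 2 of 11 and 2 of 13 genes were called higher and 3, 5 and 6 lower, where all genes gave 6.34, 6.15 and 5.18% higher and 6.01, 13 and 15.7% lower.

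Dlk1 was the one gene of the imprinted growth list called in opposite directions between libraries. Dlk1, a membrane protein of immature muscle, was at 629, 681 and 1681 CPM in myocytes and 195, 1283 and 3762 CPM in progenitors. It was called higher at E13.5 (ratio 3.22, 2.6 to 4.03) and lower at E18.5 (0.447, 0.425 to 0.47), with a ratio of 0.531 at E15.5. Relative to the median gene the E18.5 log2 ratio was -0.93 and no longer passed. At E13.5 the medians per cell were 1.19 UMIs per 10000 in myocytes and 0.96 in progenitors, and 1 myocyte held 25% of the Dlk1 UMIs. Meg3, a noncoding RNA of the same imprinted cluster, was at 2975, 3264 and 3946 CPM in myocytes and 1034, 2185 and 4565 CPM in progenitors. Over the imprinted list, 4, 1 and 0 of 13 genes were called higher and 1, 1 and 5 lower, the last being H19, Dlk1, Peg10, Mest and Plagl1. All genes gave 6.34, 6.15 and 5.18% higher and 6.01, 13 and 15.7% lower, so the E15.5 counts do not set the list apart. Peg10, a retrotransposon-derived gene, was lower in all 3 libraries.

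A minority of the splicing regulators were called higher, 3 of 9, 5 of 10 and 1 of 10, and 1, 2 and 4 were lower. Of 9 tested in all 3 libraries, Rbm24 was higher and Ptbp1 lower in each. Of the list for the embryonic to fetal switch, 0 of 6, 2 of 8 and 1 of 10 were higher and 2, 4 and 4 lower, with Nfia and Nfib lower in all 3. Beside both lists, all genes gave 6.34, 6.15 and 5.18% higher and 6.01, 13 and 15.7% lower. With so few genes per list, a single call is not a property of the list. Rbm24, an RNA-binding protein that promotes muscle exons, was at 205, 220 and 186 CPM in myocytes and 31.3, 38.1 and 36.6 CPM in progenitors. Ptbp1, which represses such exons, was called lower at ratios of 0.485, 0.236 and 0.331. Nfia, a nuclear factor I gene, was at 34.4, 36.7 and 61.2 CPM in myocytes and 93.8, 158 and 222 CPM in progenitors. The insulin-like growth factor binding protein gene Igfbp5 was at 56.9, 39 and 63.7 CPM in myocytes and 261, 283 and 244 CPM in progenitors, and without the largest E18.5 cell its level there was 41.7 CPM in myocytes.

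Outside the lists, the genes most strongly and steadily higher in all 3 libraries included Spg21, Frmd4b, Olfml2b, Sept4, Casz1 and Zbtb18. Spg21 was the most abundant of these in UMIs, with 589, 1767 and 1544 in myocytes, and its ratios were 9.98, 16.9 and 10.8. Olfml2b had ratios of 66.7, 43.4 and 9.4 and Sept4 ratios of 9.15, 77.6 and 20.2. Zbtb18, a zinc finger repressor, had ratios of 6.67, 12.8 and 9.06. The genes most steadily lower included Gas6, Postn, Sfrp2, Nog and Dbx1. The growth factor gene Gas6 was at 7.48, 7.02 and 4.08 CPM in myocytes and 75.4, 68.8 and 91.9 CPM in progenitors. Sfrp2, a secreted Wnt modulator, was at 18, 11.7 and 5.72 CPM in myocytes and 90.2, 104 and 139 CPM in progenitors. The summed fibroblast marker level was also greater in progenitors, as given above. With cells high in cartilage or fibroblast markers left out of both groups, 350, 825 and 1058 genes were lower, against 331, 930 and 1188. In all 3 libraries 102 were lower, against 104. The part of those cells in the calls of the genes named here was not tested.

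Late myocytes with Acta1 were set against early myocytes without it. Median depth was 16665.5, 15716 and 10105 UMIs in late cells and 19444, 16820.5 and 8297 UMIs in early cells. Of the 94 late cells, 35 held a single Acta1 UMI and 24 held 10 or more, so the split is a range and not a pair of cell types. At E13.5, 188 of 3643 genes (5.16%) were called higher and 164 (4.5%) lower in late cells, and 224 and 110 relative to the median gene. At E15.5, 215 of 5041 (4.27%) were higher and 343 (6.8%) lower, and 268 and 255 relative to the median gene. At E18.5, 141 of 4564 (3.09%) were higher and 322 (7.06%) lower, and 191 and 259 relative to the median gene. The same call in all 3 libraries was made for 31 genes higher (0.922%) and 33 lower (0.982%) of 3361. Relative to the median gene the lower count was 16, and with cells thinned to 3000 UMIs the counts were 10 higher and 0 lower.

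Most thick filament genes tested were called higher in late cells. The thick filament list had 7 of 8, 7 of 8 and 5 of 6 tested genes called higher and none lower, with median log2 ratios of 3.96, 2.95 and 2.63 against -0.11, -0.12 and -0.12 over all genes. Over all tested genes 5.16, 4.27 and 3.09% were higher. Genes almost absent from early cells passed the UMI minimum through the late cells, so these counts are descriptions and not support. Mylpf was at 4158, 2729 and 810 CPM in late cells and 184, 279 and 25.5 CPM in early cells. Its ratio was 22.6, 9.8 and 31.7, and 5.03 at E15.5 without the largest cell. At E13.5 the late cells with 76, 98, 131 and 159 Acta1 UMIs held 176, 131, 314 and 173 Mylpf UMIs. The other late cells there held at most 3 Acta1 and 15 Mylpf UMIs, so the E13.5 ratio rests on few cells. Myl1 had ratios of 13.3, 6.24 and 44.1, the E15.5 ratio being 2.66 without that cell. Myh3 had ratios of 18.1, 15.7 and 4.15, the E15.5 ratio being 5.73 without it. Mef2c was at 704, 487 and 129 CPM in late cells and 85.7, 81.1 and 42.5 CPM in early cells, and its E15.5 ratio of 6.01 was 3.59 without the largest cell.

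Division genes were called lower or in neither direction. Of the S phase list, 5 of 17, 14 of 16 and 8 of 14 tested genes were called lower in late cells and none higher, and of 14 tested in all 3 libraries Mcm6 and Pcna were lower in each. Of the G2/M list, 13 of 20, 16 of 19 and 11 of 16 tested genes were called lower in late cells and none higher, with median log2 ratios of -1.24, -1.77 and -1.28. The G2/M genes lower in all 3 libraries were Top2a, Ccna2, Ccnb1, Ccnb2, Cenpf, Cenpa, Birc5, Tpx2 and Cdc20. Lower calls over all genes in late cells were 4.5, 6.8 and 7.06%. Top2a had late over early ratios of 0.278, 0.312 and 0.461. Pcna, the sliding clamp of DNA replication, had ratios of 0.472, 0.0572 and 0.312. The transcription factor E2f1, which drives S phase genes, had ratios of 0.21, 0.181 and 0.271. At least 30 UMIs per 10000 of the 40 cycle genes were found in 5 of 12, 2 of 20 and 7 of 62 late cells, against 16 of 25, 25 of 54 and 18 of 69 early cells.

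Genes of commitment had smaller ratios between late and early cells. Myog was at 3185, 5769 and 3504 CPM in late cells and 3077, 3299 and 2605 CPM in early cells, and was not called in any library. Myod1 had ratios of 1.2, 0.547 and 0.684 and was not called either. Mymk had ratios of 2.58, 1.78 and 2.08 and Mymx ratios of 1.24, 2.25 and 1.99. Chrna1 was called higher at E18.5 only, at a ratio of 2.04, and stood at 0.903 and 1.75 in the earlier libraries. Actc1 had ratios of 1.69, 2.11 and 1.61, and 1.66 at E15.5 without the largest cell. Fgfr4, a growth factor receptor of progenitors, was called lower in each library, at 0.198, 0.247 and 0.452.

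Creatine synthesis genes appeared among the leading late genes. Gatm and Gamt encode the enzymes of the 2 steps that make creatine, the energy buffer of muscle. Gatm was at 238, 290 and 253 CPM in late cells and 111, 114 and 74.9 CPM in early cells. Gamt was at 377, 325 and 414 CPM in late cells and 92.1, 95 and 126 CPM in early cells. Tmem38a, a potassium channel of the sarcoplasmic reticulum, had ratios of 19.3, 8.33 and 2.77, the E15.5 ratio being 5.23 without the largest cell. Synpo2l, a Z-disc protein, had ratios of 6.66, 6.44 and 14.8, the E15.5 ratio being 3.23 without it. Opposite calls between libraries were made for 20 genes, where 3361 were tested in all 3. The cartilage genes Col2a1, Col9a1, Matn1 and Col11a1 were among the 20.

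Ordering all 242 myocytes by Acta1 gave a sequence of levels. The cells were divided into 148 without Acta1 and 32, 31 and 31 cells of rising Acta1, at 0.380 to 1.49, 1.50 to 5.67 and 5.97 to 85.6 UMIs per 10000. Of the 31 highest cells, 4 came from E13.5, 1 from E15.5 and 26 from E18.5, so the order is not free of stage. Median depth was 12142.5, 13118, 10154 and 10408 UMIs along the order.

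Actc1 was at 3170, 4295, 4854 and 6270 CPM along that order, and Tnnt2 at 544, 1116, 1635 and 1863 CPM. Mylpf stood at 182, 620, 1109 and 3988 CPM, and Myl1 at 163, 378, 598 and 2116 CPM. Mymx was highest in the second group, at 290, 563, 508 and 378 CPM, while Mymk ran 212, 267, 445 and 525 CPM. Myod1 was at 314, 244, 155 and 174 CPM. Top2a was at 213, 108, 65.8 and 7.23 CPM, and Mki67 had 98, 14, 3 and 0 UMIs. The summed G2/M level of the highest Acta1 group was 0.0330 of that in cells without Acta1, and 0.0394 when only E18.5 cells were used. Among the 131 E18.5 myocytes alone, in groups of 69, 21, 21 and 20 cells, Actc1 was at 2207, 2886, 3687 and 4222 CPM, Mylpf at 25.5, 506, 622 and 1346 CPM, and Mymx at 168, 219, 423 and 385 CPM, so the highest Mymx there was in the third group. The 1 E15.5 cell in the highest group of the 3 libraries was the largest myocyte. Without it the highest group held 4621 CPM of Actc1, below the third group, 3188 CPM of Mylpf, 1433 CPM of Myl1, 1833 CPM of Tnnt2 and 8.7 CPM of Top2a.

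**Figure D4:**
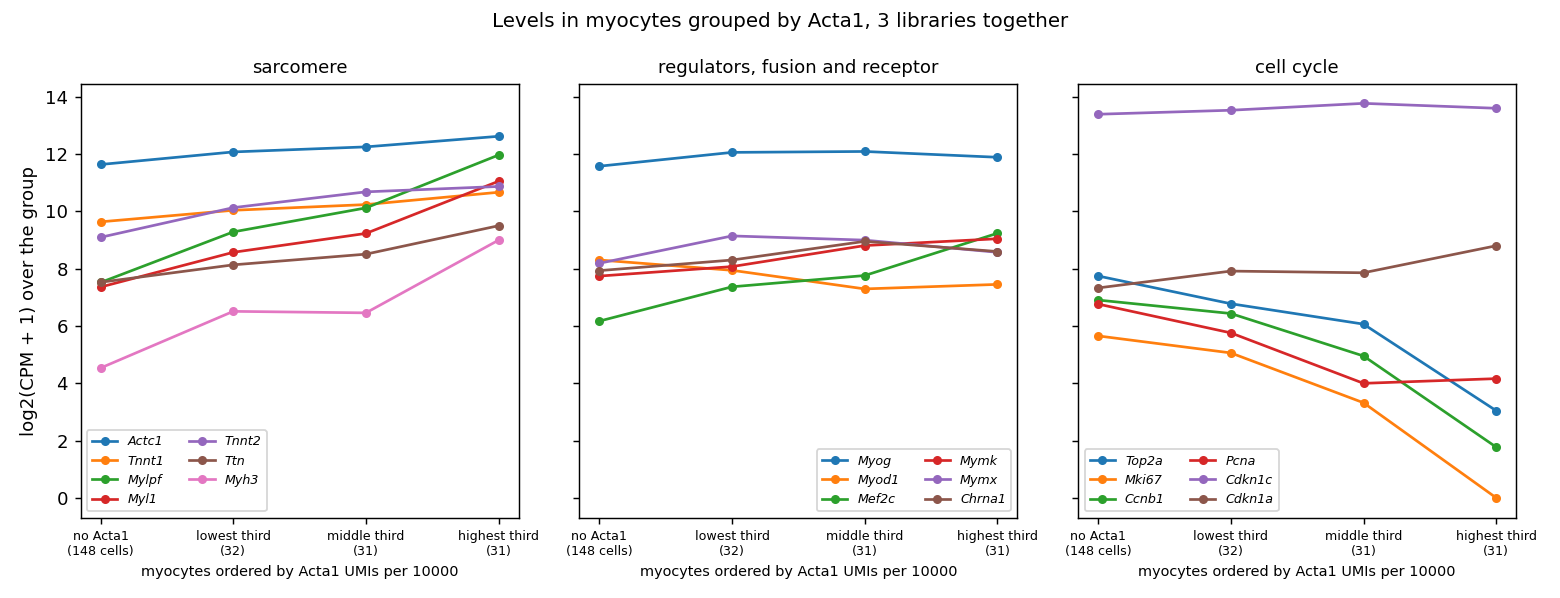
Log2 of CPM plus 1 on the vertical axis for myocytes of the 3 libraries in 4 groups of increasing Acta1 on the horizontal axis (148, 32, 31 and 31 cells). Contractile genes such as Mylpf climb to 3988 CPM in the last group (3188 CPM without the largest E15.5 cell), and Top2a drops to 7.23 CPM.

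Between libraries the myocytes differed in number and in content, but with 1 library per stage each difference compares libraries. At E15.5 over E13.5, 66 of 6395 genes (1.03%) were called higher and 304 (4.75%) lower, and 108 and 217 relative to the median gene. At E18.5 over E15.5, 313 of 6859 (4.56%) were higher and 571 (8.32%) lower, and 452 and 319 relative to the median gene. At E18.5 over E13.5, 282 of 6201 (4.55%) were higher and 945 (15.2%) lower, and 475 and 451 relative to the median gene. Progenitors of the same libraries, set side by side, had 158 of 6378 (2.48%) higher and 175 (2.74%) lower, 437 of 7677 (5.69%) and 635 (8.27%), and 458 of 7134 (6.42%) and 687 (9.63%). Relative to the median gene the last 2 progenitor splits were 605 and 397, and 613 and 480. The median log2 ratio over all genes in myocytes was -0.12, -0.21 and -0.34 in that order. Among genes outside the lists, Tsix ranked 1 and Xist 3 of those higher in E15.5 over E13.5 myocytes. Whether the pooled pups differed in sex between libraries was not tested.

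Most thick filament and Z-disc genes tested were at lower summed level in E18.5 than in E13.5 myocytes. Of 9 thick filament genes tested in E18.5 over E13.5, 8 were called lower and none higher, and of 17 Z-disc genes 11 were lower and 1, the chaperone Cryab, was higher. The E18.5 over E13.5 ratio was 0.0909 for Myh3, 0.129 for the embryonic light chain Myl4 and 0.314 for Mylpf. At E13.5 the cells with 131, 173, 176 and 314 Mylpf UMIs carried most of the level, and no other held more than 20. The Mylpf ratio thus rests on few cells and was not computed without them. Tnnc1 had ratios of 0.278 at E15.5 over E13.5 and 0.0534 at E18.5 over E15.5, or 0.091 and 0.16 without the largest E15.5 cell. Tnnt2 went against these lower ratios, with a ratio of 2.34 at E18.5 over E13.5. For Acta1 the ratio was 0.739 at E18.5 over E13.5, and 2.42 at E18.5 over E15.5, or 14.1 without the largest E15.5 cell. The E13.5 level of Acta1 came almost only from the cells with 76, 98, 131 and 159 UMIs, and no other held more than 3. The ratio of 0.739 thus rests on few cells and was not computed without them.

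Regulators and growth genes also differed by library. Mef2c had a ratio of 0.321 in myocytes and 1.12 in progenitors at E18.5 over E13.5. Hes6 had myocyte ratios of 0.375 at E18.5 over E15.5 and 0.271 at E18.5 over E13.5. Dlk1 was called higher in E18.5 myocytes, at 2.47 over E15.5 and 2.67 over E13.5. Its level in progenitors was also greater in the later libraries, as given above. Nfib, a nuclear factor I gene tied to the fetal muscle programme, had a ratio of 2.01 at E18.5 over E13.5, and Nfix had 3.2 at E18.5 over E15.5. Of 20 G2/M genes, 18 were called lower at E18.5 over E13.5, and of 20 S phase genes 9 were.

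Outside the lists, Chchd10, a gene of the mitochondrial cristae, was at 2.99, 12.5 and 116 CPM in myocytes and 11, 17.7 and 11.4 CPM in progenitors at E13.5, E15.5 and E18.5, and it had a UMI in 66 of 131 E18.5 myocytes. Rxrg, a retinoid receptor gene, was at 108, 29.6 and 1.63 CPM in myocytes and 36.8, 16.7 and 6.01 CPM in progenitors. The cytokine gene Il17b was at 115, 99.9 and 4.08 CPM in myocytes, with 0 UMIs in progenitors of all 3 libraries. Genes of other cells or of stress were also among the leading E18.5 genes: C1qa of macrophages, Krt5 of keratinocytes, Dcn of fibroblasts, Rgs5 of pericytes, S100a9 of neutrophils, and the stress genes Hspa1a and Atf3. Rgs5 had 0, 1 and 92 UMIs in myocytes in stage order, Hspa1a 4, 2 and 103, S100a9 0, 1 and 33, and Atf3 2, 17 and 93. At E18.5 they were found in 19, 38, 30 and 47 myocytes, while 98.2% of the 55 C1qa UMIs lay in 1 cell. Macrophage, epithelial and fibroblast markers reached 10 UMIs per 10000 in 2, 1 and 7 of the 131 E18.5 myocytes. The part of those cells and of stress in the calls was not tested.

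**Figure D5:**
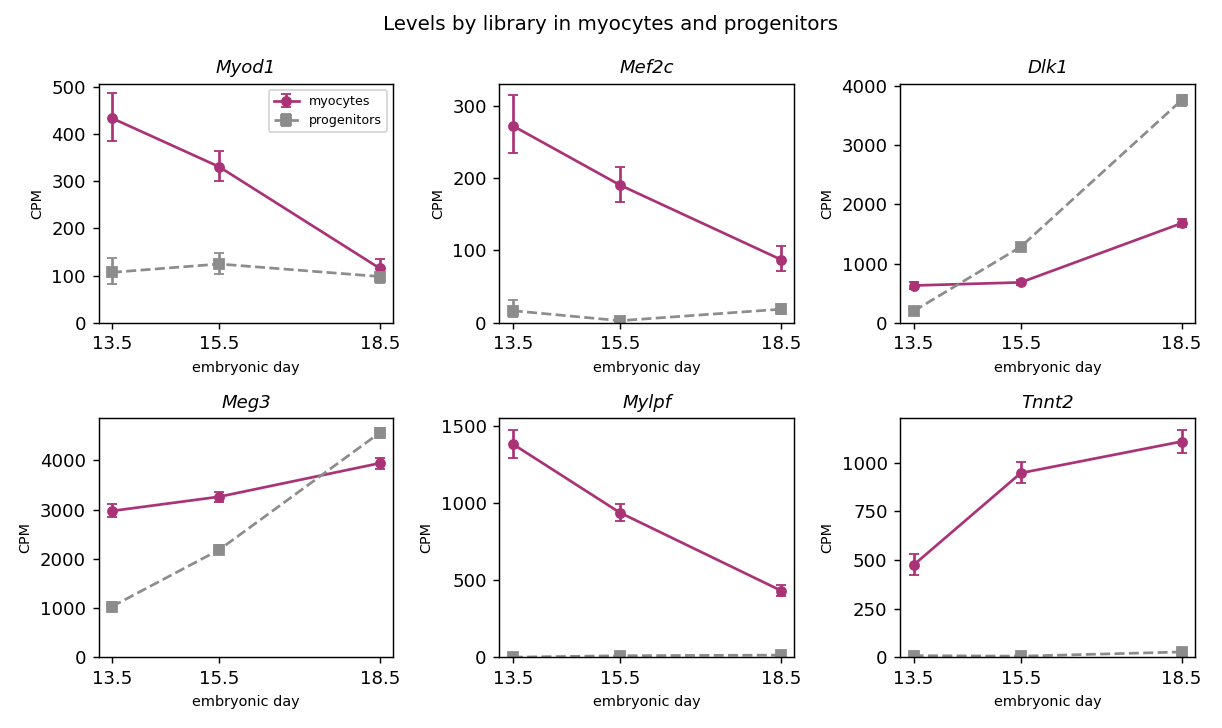
CPM of 6 genes on the vertical axis at E13.5, E15.5 and E18.5 on the horizontal axis, in myocytes and progenitors, with Poisson 95% intervals that cover counting error only. Myod1 stands at 434, 331 and 115 CPM in myocytes and 107, 125 and 97.9 CPM in progenitors, and Dlk1 at 629, 681 and 1681 CPM in myocytes and 195, 1283 and 3762 CPM in progenitors.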

How the data were processed

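The authors deposited raw UMI counts for each gene in each barcode from the 10x Chromium 3' kit, made with Cell Ranger on build mm10, with Seurat 2.3.4 also named, per the submitters' processing notes. Barcode calling and doublet handling were not given in the sources used here. Cells needed 200 genes or more and a mitochondrial share of 10% or less (68, 110 and 93 barcodes removed at E13.5, E15.5 and E18.5). UMIs were summed per group, and ratios had exact conditional binomial 95% intervals, computed with Python 3.11.15, numpy 2.4.6, scipy 1.17.1, pandas 2.3.3 and matplotlib 3.10.9. The calling was tested on simulated counts that held counting error only, so that test does not cover variation between cells or animals. Cells are not replicates, so no test was run. The members and the 18 gene lists (316 of 318 genes matched) were chosen with earlier results of these data known. Late and early were to be divided at the median Acta1 level; that median was 0, so any Acta1 UMI marked a late cell, and 4 groups (none, then equal parts of the cells with Acta1) replaced the quartiles. Named genes were the 4 markers, the genes that chose the progenitors, examples from each list, and per contrast the genes outside the lists with the largest smallest ratio over libraries; some list genes were named for their role after their values were seen. Gene positions came from GENCODE vM21. Promoter shares over the called genes are void, since 87 of the 126 higher genes matched. Alternatives were the median-gene scaling, equal weight per cell, other UMI minimums, thinning to 3000 UMIs, other mitochondrial limits, libraries left out, Acta1 subsets and, added after the data were seen, cells with markers of other types or the largest myocyte left out.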

Additional observations from a re-analysis of the deposited data

Results flagged for a closer look

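The E11.5 library, which the rule does not use, held 6 cells with at least 5 Myog UMIs (8 to 96 Myog UMIs, of 2640 kept cells). In 3 of them Acta1 had 24, 36 and 2 UMIs.

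Some genes were called in opposite directions in libraries or groups under the same contrast, and none of these differences was tested. In myocytes over progenitors these were 29 genes, where 5328 were tested in all 3 libraries. Only genes of the lists are given here. Dlk1 in myocytes over progenitors had a ratio of 3.22 at E13.5 and 0.447 at E18.5, and relative to the median gene the E18.5 log2 ratio was -0.93 and no longer passed. Mybpc1, the slow myosin-binding protein C gene, had 3.56 at E13.5 and 0.458 at E18.5 in that contrast. At E15.5 over E13.5, Plk1 had 0.472 in myocytes and 2.16 in progenitors. At E18.5 over E15.5, Mef2c had 0.459 in myocytes, or 0.661 without the largest E15.5 cell, and 6.68 in progenitors. At E18.5 over E13.5, the ratio in myocytes was 0.227 for Ccne2, 0.489 for Gadd45g, 0.483 for Mybpc1 and 0.314 for Mylpf. In progenitors it was 2.32 for Ccne2, 2.71 for Gadd45g, 3.75 for Mybpc1 and 8.16 for Mylpf, the last resting on 1 UMI at E13.5. The E13.5 level of Mylpf in myocytes rested on few cells, as given above.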

How the results depend on the processing

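Over 36 named genes in myocytes over progenitors, 1235 of 1262 recomputed results kept their direction and their side of the 2-fold limit, 15 no longer passed it, 12 newly passed it and 0 reversed. Changing the UMI minimum leaves ratios and intervals as they are, so those results could not change. Genes that fell under the minimum in a setting were left out of the total. Of 188 recomputed counts, 145 stayed within 1.5 times. Among them, dividing late from early cells at the median of each library gave the same groups, so its counts could not change. With a minimum of 50 UMIs the myocyte over progenitor calls were 172 higher and 107 lower, 257 and 453, and 239 and 714 in stage order, and 76 and 49 in all 3 libraries. Late over early calls were then 147, 293 and 179, with 17 higher and 14 lower in all 3, and calls between libraries were 132 (E15.5 over E13.5), 426 (E18.5 over E15.5) and 607 (E18.5 over E13.5). With cells thinned to 3000 UMIs the same counts were 87 and 56, 157 and 198, 235 and 581, 47 and 12, then 58, 88 and 146, with 10 and 0, and 78, 308 and 343. Fewer UMIs enter at that depth, which limits what can be called.

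With no minimum, 547 genes were lower at E13.5, and with equal weight per cell 498. Relative to the median gene, 16 genes were lower in late cells in all 3 libraries. Leaving out the E13.5 library gave 202 higher and 475 lower genes over the remaining libraries, and leaving out E18.5 gave 205 and 158. Between libraries, myocytes without Acta1 gave 735 calls for E18.5 over E13.5, and those with Acta1 gave 746, and 558 for E18.5 over E15.5. A mitochondrial limit of 5% left 75 myocytes at E18.5. In myocytes over progenitors, Dlk1 at E18.5 stood at -0.93 (log2) with the median-gene scaling, Des at E15.5 at 0.92 without the largest cell, Hes6 at E18.5 at 0.77, Myod1 at E15.5 at 0.86 and Top2a at E13.5 at 1.20 with thinned cells, and the causes were not tested. Leaving out the largest myocyte of each library, an alternative chosen after the data were seen, kept all counts within 1.5 times. At E13.5 that myocyte held 29106 UMIs, of which 0 were Acta1 and 2 were Mylpf. The E13.5 cells high in Acta1 and Mylpf stayed in, so this setting cannot show their weight. No paired analysis was possible because each stage is 1 library and the shared replicate number only names it. Myocytes and progenitors, and late and early cells, were compared within a library throughout. Depth at E18.5, at 8885 UMIs in the median myocyte, limits what a missing UMI can show.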
